A study of Rattus norvegicus and Mus musculus with 34 samples.

Results

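The matrix metalloproteinases Mmp2, Mmp3, Mmp9, Mmp10, Mmp12, Mmp13 and Mmp14 and the tissue inhibitors Timp1, Timp2 and Timp3 were followed by RNA-seq in healing bone and in a macrophage line. These 10 genes, 7 proteases and 3 inhibitors, were picked by their symbols, and all 10 were among the 20022 genes of the rat table. All 10 were also among the 51912 genes of the mouse macrophage table, where 9 had at least 1 read. The rats were wild-type male Sprague-Dawley animals aged 6 to 8 weeks, each with a surgical periodontal defect in the mandible. In the sensory nerve- groups a segment of the inferior alveolar nerve, which supplies sensation to the mandible, was removed in the same operation, and in the sensory nerve+ groups the nerve was left intact. Tissue from within the defect was taken on day 3, 7 or 14 from separate animals, with 3 rats in the sensory nerve+ group of day 3 and 4 rats in each of the other 5 groups. All rats were given penicillin after surgery. In vitro, cultures of RAW264.7, a transformed mouse macrophage line, received LPS, a bacterial endotoxin, at 100 ng/ml for 6 h (6 cultures), or the same LPS with the sensory neuropeptide CGRP at 10 nM (5 cultures). Every culture thus carried LPS, and no resting culture was analysed here.

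Matrix metalloproteinases are zinc-dependent enzymes that are made as inactive precursors and together cut collagens, elastin and other proteins of the extracellular matrix. Collagenase-3 (Mmp13) cuts fibrillar collagen, the gelatinases (Mmp2, Mmp9) take up the denatured product, the stromelysins (Mmp3, Mmp10) cut proteoglycans and activate other precursors, macrophage metalloelastase (Mmp12) cuts elastin, and the membrane-bound Mmp14 activates the Mmp2 precursor at the cell surface. TIMPs bind the active enzymes and block them. In bone, Mmp9 is known as an abundant product of osteoclasts, and Mmp13 of osteoblasts and hypertrophic chondrocytes.

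A rat library held 14854648 to 18742491 counts, and a macrophage library 55614185 to 71538840 reads. Levels are given as CPM, the count relative to the library size after TMM scaling, a scaling that corrects for a few genes taking up much of a library. Transcripts of 6 globin genes took between 0.263% and 50.1% of the counts of a rat. The highest share was in sensory nerve- rat 3 of day 14, and the other 3 rats of that group had 26.8%, 0.263% and 32.4%. Markers of osteoblasts, osteoclasts, fibroblasts and macrophages were present in every rat group. Summed skeletal muscle markers ranged from 19.2 to 560.6 CPM on day 3 and from 1809 to 36560 CPM on day 7, and summed tooth markers reached 23010 CPM in 1 rat of day 3. In the macrophages Cd68 lay between 761 and 793 CPM, whereas summed fibroblast markers stayed under 0.774 CPM. The rat and macrophage levels come from different species, builds and normalizations, and no test was made between them.

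The genes of the Mmp3, Mmp10, Mmp12 and Mmp13 group lie together on rat chromosome 8, beside Mmp1, Mmp1b, Mmp7, Mmp8, Mmp20 and Mmp27. Promoter sequences from RefSeq (build GRCr8) were matched for 7 of the 10 genes, not for Mmp2, Mmp9 and Mmp14. Because these 4 neighbours gave quite different levels in the same rats, the 160 bases before each start site are shown, on the plus strand and ending at the base before the start. Capitals mark TGANTCA, the letters bound by AP-1 (dimers of Fos and Jun proteins), TATAAA, the TATA box, and AACCACA, the letters bound by RUNX factors, on either strand. None of these matches overlapped another in the stretches shown. The positions are chr8:12925121-12925280 for Mmp3, chr8:12974547-12974706 for Mmp10, chr8:12866492-12866651 for Mmp12 and chr8:12782669-12782828 for Mmp13.
Mmp3: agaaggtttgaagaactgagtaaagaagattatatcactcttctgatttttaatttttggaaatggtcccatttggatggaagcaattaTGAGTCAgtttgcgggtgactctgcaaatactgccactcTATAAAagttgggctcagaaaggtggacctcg
Mmp10: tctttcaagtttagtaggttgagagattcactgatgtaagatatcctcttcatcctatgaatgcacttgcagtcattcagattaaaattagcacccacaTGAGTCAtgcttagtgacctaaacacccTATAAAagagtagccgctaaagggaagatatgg
Mmp12: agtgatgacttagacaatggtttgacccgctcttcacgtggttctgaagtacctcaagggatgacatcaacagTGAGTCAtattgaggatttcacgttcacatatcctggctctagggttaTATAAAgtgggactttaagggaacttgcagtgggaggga
Mmp13: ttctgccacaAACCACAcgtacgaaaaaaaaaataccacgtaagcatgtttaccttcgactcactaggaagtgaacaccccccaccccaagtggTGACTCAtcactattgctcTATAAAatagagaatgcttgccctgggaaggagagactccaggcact

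The AP-1 letters began 71, 61, 87 and 66 bases before the start of Mmp3, Mmp10, Mmp12 and Mmp13, respectively. Each of these 4 promoters also held a TATA box, which began 32, 33, 39 and 47 bases before the start in the same order. Farther out than the stretch shown, Mmp10 held overlapping matches to the TATA box on both strands, 198 and 196 bases before its start. The RUNX letters were found in Mmp13 alone, 150 bases before its start. Timp1, Timp2 and Timp3 held none of the 3 motifs within 250 bases before and 50 bases after the start. Over 33469 promoters of that length, 7.33% held the AP-1 letters, 5.57% the RUNX letters and 14.2% the TATA box. A match describes the letters and is no evidence of binding.

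Across the days of healing, Mmp12 was the 1 member that passed the threshold of an adjusted p under 0.05. In sensory nerve+ rats its level was 21.5, 13.9 and 42.4 CPM on day 3, and 549, 458, 157 and 237 CPM on day 7. Every rat of day 7 lay above every rat of day 3. In sensory nerve- rats the levels were 65.9, 83.2, 27.3 and 34.1 CPM on day 3, and 140.3, 427, 951 and 635 CPM on day 7, again without overlap, as for 9.16% of all genes in the same direction. Mmp12 rose 13.9-fold from day 3 to day 7 with the nerve intact (log2 fold change 3.797 ± 0.61 SE, adjusted p = 0.0175, edgeR quasi-likelihood test with Benjamini-Hochberg adjustment over all genes) and 10.1-fold after transection (3.34 ± 0.62, adjusted p = 0.0195, edgeR). In both comparisons it was the 1 member called, of 10 and of 9 tested, where 6.67% and 10.4% of all genes were called. The sensory nerve- rats of day 7 were deposited in a table of their own, so in every comparison with them, between days or by transection, a difference between tables cannot be told apart from the comparison.

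On day 14 Mmp12 stood between these levels, at 170.6, 34.0, 234 and 129.8 CPM in sensory nerve+ rats and at 137, 160.3, 126 and 238 CPM in sensory nerve- rats. The rat at 34.0 CPM fell within the range of day 3, and every other rat of day 14 lay above it. After transection day 14 did not overlap day 3, as for 10.6% of all genes in this direction, and the difference passed the test (3.04-fold, log2 1.61 ± 0.38, adjusted p = 0.0207, edgeR), 1 member of 10, where 23.5% of all genes were called. With the nerve intact the difference was 2.48 ± 0.69 and missed the threshold (adjusted p = 0.0756, edgeR), and 0 of 10 members were called where 5.78% of all genes were. Between day 7 and day 14 the log2 difference was -1.27 ± 0.59 with the nerve intact and -1.70 ± 0.52 after transection, with adjusted p of 0.55 and 0.129 in edgeR. From day 7 to day 14 no member was called, where 0.0202% and 0.0138% of all genes were called with and without the nerve.

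The Mmp12 calls were close to the threshold. Without 1 rat at a time the day 7 call held in 5 of 7 fits with the nerve intact (log2 3.49 to 4.34, adjusted p 0.00788 to 0.0813) and in 5 of 8 after transection (2.91 to 3.66, adjusted p 0.0156 to 0.0627). The call was lost without sensory nerve+ rat 1 of day 3 or rat 2 of day 7, and without sensory nerve- rat 1 or rat 4 of day 3 or rat 3 of day 7. The day 14 call after transection held in 6 of 8 fits and was lost without rat 4 of either day. It was also lost when counts were scaled by the library total, where the log2 difference was 1.23 and adjusted p = 0.0887.

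Mmp12 is known as a product of macrophages. From day 3 to day 7, 3 of 11 macrophage markers were higher and 8 lower with the nerve intact, with a median log2 difference of -0.56 and 1 called lower. After transection 6 were higher and 5 lower, with a median of 0.11 and 2 called higher. The macrophage sum was mostly Lyz2, with group medians of 2465 to 7595 CPM where those of the sum were 3171 to 9986 CPM. A likeness to this sum therefore says little of the other macrophage markers. Over the 23 rats log2 CPM of Mmp12 and of the summed macrophage markers gave Pearson r = 0.03 and Spearman rho = 0.02. With summed skeletal muscle markers r was 0.70 and rho 0.63, and r was 0.67 without the 2 rats farthest from the median muscle level. Once each group's mean was taken out, r with muscle was 0.14. All 8 muscle markers were higher on day 7 than on day 3 in both nerve groups, 8 of them called with the nerve intact (median log2 difference 7.83) and 4 without it (6.27). The osteoclast markers gave r = 0.59 and rho = 0.65 with Mmp12, and r = 0.49 with group means taken out, the highest of the 11 marker lists on that measure. Epithelial markers gave r = -0.58, and -0.11 with group means taken out. The part of these cells in the difference between days was not tested. The genes most alike to Mmp12 over the 23 rats, among 14334 genes, were Plscr2 (r = 0.92), Ptcd3 (r = 0.89) and Plxdc2 (r = 0.87). These points share library, depth and day, so r is a description.

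**Figure D1:**
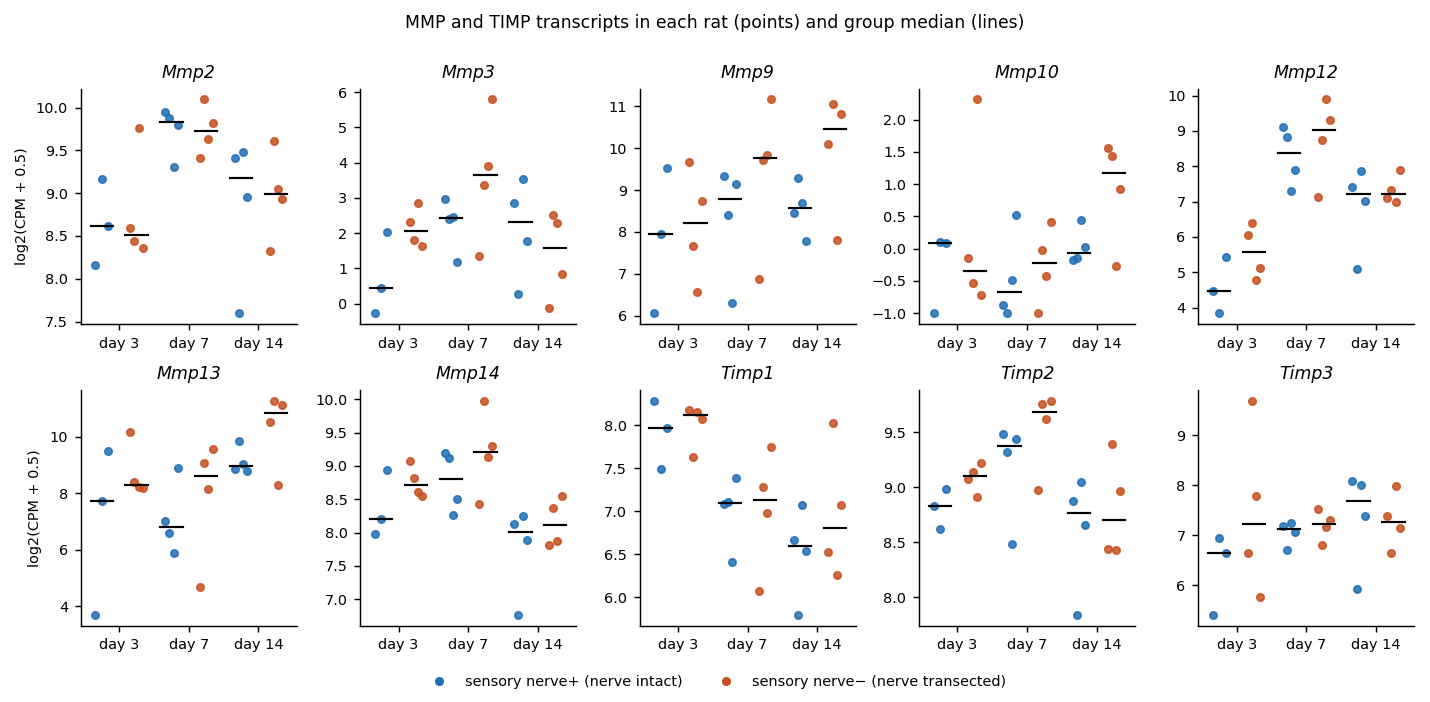
Level of each of the 10 genes in each rat, as log2(CPM + 0.5), by day and by nerve group, with 1 point per rat (3 rats in the sensory nerve+ group of day 3 and 4 in each other group) and a line at the group median. Mmp12 on day 7 lies above day 3 in both nerve groups, Timp1 is highest on day 3, and 3 of 4 sensory nerve- rats of day 14 stand above the sensory nerve+ rats in Mmp9 and Mmp13.

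The collagenase Mmp13 and the gelatinase Mmp9 were followed for the comparison the study was built on, bone with against bone without its sensory nerve. On day 14 Mmp13 was at 469, 932, 529 and 445 CPM with the nerve intact, and at 1485, 2463, 316 and 2224 CPM without it. In 3 of 4 sensory nerve- rats it was above every sensory nerve+ rat, while rat 3 was below them all. Mmp9 on the same day was at 348, 625.2, 414 and 218 CPM with the nerve, and at 1101, 2139, 223 and 1810 CPM without it. Here too 3 rats stood above the sensory nerve+ range and rat 3 within it. The log2 difference was 1.43 ± 0.57 for Mmp13 (2.70-fold) and 1.70 ± 0.63 for Mmp9 (3.25-fold). Unadjusted edgeR p-values were 0.0368 and 0.027, and both had an adjusted p of 0.519 over the 14610 genes tested. None of the 10 members was called and none separated the groups, where 0 genes in all were called by edgeR, 3.37% of genes did not overlap between the groups, and 9.33% had an unadjusted p under 0.05.

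The low rat of this group, rat 3, was also the one with 50.1% of its counts on globin. Without it the log2 difference was 1.75 for Mmp13 and 2.02 for Mmp9, each with an adjusted p of 0.217 (edgeR). Summed osteoclast markers (Acp5, Ctsk and 7 others) were 1156 CPM in rat 3 and 5918, 10640 and 10910 CPM in the other sensory nerve- rats of day 14, against 1362 to 2889 CPM in the sensory nerve+ rats. All 9 osteoclast markers were higher after transection on day 14, with a median log2 difference of 1.62, and none was called. Other bone cells moved with them, 10 of 10 osteoblast markers being higher (median 1.35) and 4 of 5 chondrocyte markers (1.60), as were 6 of 6 red cell markers (1.998), while 8 of 8 muscle markers were lower (-2.60), again without a call. Rat 3 was the lowest of its group also in summed osteoblast markers (12780 CPM against 26860 to 48880) and chondrocyte markers (26.9 CPM against 211 to 665). The part of these cells in the difference was not tested. In a bulk sample, fewer cells of a type and less RNA per cell cannot be told apart.

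Mmp9 followed the osteoclast markers from rat to rat. Over the 23 rats Mmp9 and the summed osteoclast markers, which do not include it, gave r = 0.96 and rho = 0.95 on the log2 scale, with r = 0.95 without the 2 rats farthest from the median marker level and r = 0.97 with group means taken out. The corresponding values for Mmp13 were 0.73, 0.71, 0.72 and 0.84. With osteoblast markers Mmp13 gave r = 0.51, with chondrocyte markers 0.47 and with neutrophil markers 0.54, and with group means taken out 0.60, 0.68 and 0.35. The osteoblast sum was mostly Col1a1 and Spp1, with group medians of 9683 to 22190 and 1163 to 12350 CPM. Next came Ibsp with 302.9 to 2018 CPM, so the other osteoblast markers weighed little in these values. The osteoclast sum was likewise mostly Ctsk and Acp5, with group medians of 379.5 to 5380 and 130.8 to 2165 CPM. Its r with Mmp9 and Mmp13 therefore says little of the other osteoclast markers. For Mmp9 the osteoblast and macrophage markers came next after the osteoclast markers, at r = 0.53 and 0.48. Mmp9 and Mmp13 gave r = 0.79 and rho = 0.75 with each other, and within days r = 0.81 on day 3, 0.88 on day 7 and 0.99 on day 14. Among the genes most alike to Mmp9 were LOC103690326 (r = 0.97) and Myo1d (r = 0.95), and most alike to Mmp13 were Lbp (r = 0.91), Slit2 (r = 0.91) and Podnl1 (r = 0.89). All of these values come from the same libraries and are given as descriptions.

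**Figure D2:**
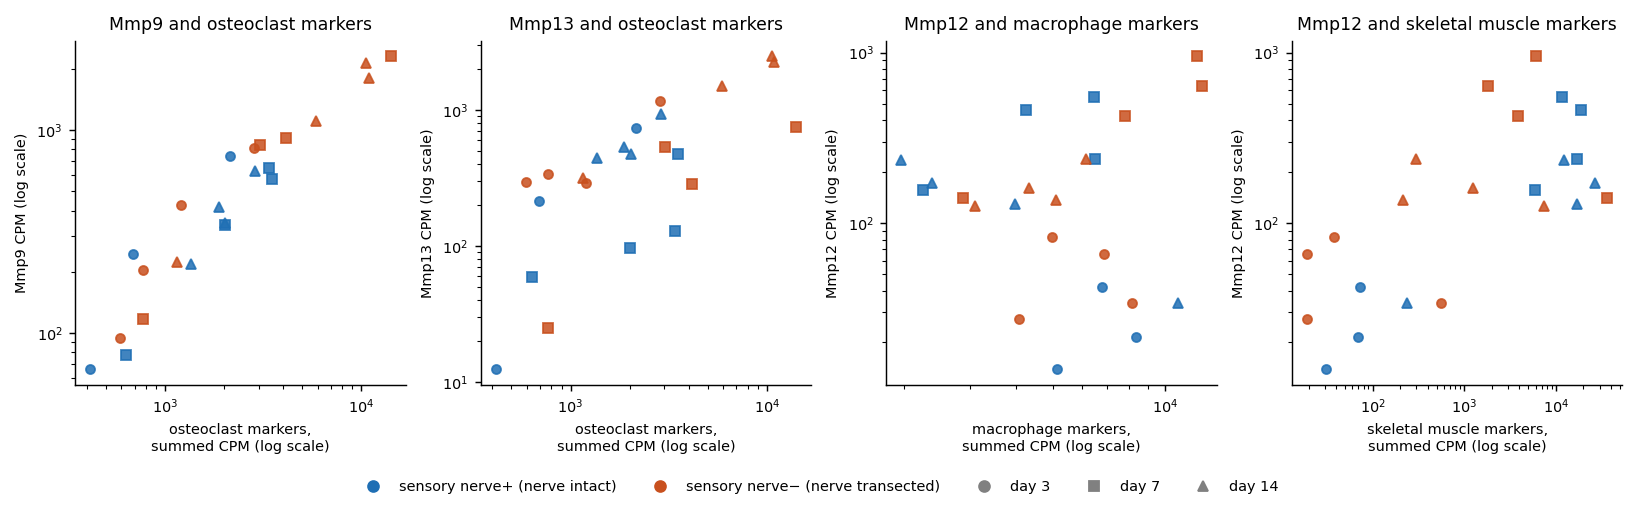
CPM of Mmp9 and Mmp13 against summed CPM of 9 osteoclast markers, and CPM of Mmp12 against summed macrophage and skeletal muscle markers, on log axes with 1 point per rat, colour for the nerve group and shape for the day. Mmp9 follows the osteoclast markers, whose sum is mostly Ctsk and Acp5, over the 23 rats (r = 0.96). The corresponding value of Mmp12 with the macrophage markers, whose sum is mostly Lyz2, is r = 0.03.

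Earlier in healing the same pair spread as widely as the groups. On day 7 Mmp9 was at 648, 339, 77.9 and 570 CPM in sensory nerve+ rats and at 117, 845, 909 and 2300 CPM in sensory nerve- rats. Mmp13 was at 128, 96.6, 59.1 and 476 CPM and at 25.1, 536, 286 and 752 CPM, respectively. For both genes the sensory nerve- rats included the highest level, and for Mmp13 also the lowest. The log2 difference of day 7 was 1.35 ± 0.86 for Mmp9 and 1.07 ± 0.95 for Mmp13, with an adjusted p of 0.9997 each (edgeR). It was 0.61 and 0.57 without sensory nerve- rat 4, and 2.09 for Mmp13 without sensory nerve+ rat 4. On day 3 Mmp9 ranged from 66.1 to 741 CPM with the nerve and from 94.7 to 813 CPM without it, and Mmp13 from 12.4 to 729 CPM and from 289 to 1160 CPM.

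From day 7 to day 14 Mmp13 was higher by 1.67 ± 0.65 on the log2 scale with the nerve intact (unadjusted p = 0.0319) and by 2.03 ± 0.94 without it, with adjusted p of 0.504 and 0.232 in edgeR. In sensory nerve- rats Mmp9 was higher by 1.43 ± 0.88 on day 7 than on day 3 (adjusted p = 0.318, edgeR). Without the nerve, day 14 differed from day 3 by 1.60 ± 0.69 for Mmp13 and by 1.74 ± 0.79 for Mmp9, with adjusted p of 0.124 and 0.142 (edgeR). All of these differences missed the threshold, and in each of them the groups overlapped. The effect of transection on Mmp9 differed by 1.22 ± 1.26 between day 3 and day 7 and by 1.58 ± 1.26 between day 3 and day 14, with adjusted p of 1 and 0.806 (edgeR). Without sensory nerve+ rat 3 of day 3 these values were 0.04 and 0.41, and without sensory nerve- rat 1 of day 3 they were 1.89 and 2.25.

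The other gelatinase, Mmp2, was most abundant on day 7. In sensory nerve+ rats it was at 287, 575 and 391 CPM on day 3, at 984, 940.0, 630 and 887 CPM on day 7, and at 679, 193, 711 and 495 CPM on day 14. Day 7 lay wholly above day 3, by 1.09 ± 0.29 on the log2 scale (2.13-fold, unadjusted p = 0.00636), but the adjusted p was 0.0687 (edgeR). Of the 10 members, 2 were separated upward in this comparison (Mmp12 and Mmp2) and 1 downward (Timp1), where 12.7% of all genes were separated in each direction. In sensory nerve- rats Mmp2 was at 386, 346, 867 and 329 CPM on day 3, at 679, 1094, 793 and 900.2 CPM on day 7, and at 321, 782, 530.0 and 489 CPM on day 14. Day 3 and day 7 overlapped there through the single day 3 rat at 867 CPM, and the difference from day 7 to day 14 missed the threshold (-0.71 ± 0.30, adjusted p = 0.199, edgeR). Transection moved Mmp2 little, with log2 differences of 0.19 ± 0.44, 0.00 ± 0.23 and 0.02 ± 0.44 on days 3, 7 and 14. Its most alike genes were Postn (r = 0.92), a matricellular protein of periodontal ligament and periosteum, Igsf10 (r = 0.91) and Thbs3 (r = 0.90).

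Mmp14, the membrane-bound activator of Mmp2, was lowest on day 14. Its levels with the nerve intact were 252, 293 and 489 CPM on day 3, 586, 556, 306 and 361 CPM on day 7, and 280.1, 108, 303 and 237 CPM on day 14. Every rat of day 14 lay below every rat of day 7, narrowly (303 against 306 CPM). The log2 difference was -0.94 ± 0.35 with an adjusted p of 0.501 (edgeR), and 1 of 9 members was separated downward where 3.43% of all genes were. Without the nerve the levels were 536, 451, 391 and 375 CPM on day 3, 344, 1006, 559 and 632 CPM on day 7, and 223, 330.2, 234 and 374 CPM on day 14. Every rat of day 14 was under every rat of day 3, if barely (374.1 against 375.1 CPM), as for 16.1% of all genes in this direction. The difference was -0.64 ± 0.20 on the log2 scale with an adjusted p of 0.0524 (edgeR), and that from day 7 was -1.13 ± 0.34 with an adjusted p of 0.129. Transection differed by 0.30 to 0.48 on the log2 scale over the 3 days.

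The stromelysins were read from few counts. Mmp3 was at 0.327, 0.857 and 3.59 CPM in sensory nerve+ rats on day 3 and at 4.47, 2.99, 6.71 and 2.62 CPM in sensory nerve- rats. On day 7 it was at 7.35, 4.79, 5.00 and 1.78 CPM with the nerve and at 2.02, 9.75, 14.5 and 55.0 CPM without it. The day 7 groups overlapped, and 1 rat at 55.0 CPM stood far above the others. The difference of 2.08 ± 0.88 on the log2 scale had an unadjusted p of 0.0449 and an adjusted p of 0.9997 (edgeR), and it was 0.88 without that rat. It was the 1 member of 9 tested with an unadjusted p under 0.05 on day 7, where 1.46% of all genes had one and none was called. On day 14 the levels were 6.67, 0.700, 11.1 and 2.92 CPM and 0.409, 5.24, 4.42 and 1.295 CPM, and the difference pointed the other way (-0.91 ± 0.94). The change in the effect of transection from day 7 to day 14 was -3.00 ± 1.31 (unadjusted p = 0.0331, adjusted p = 0.884, edgeR), 1 of 10 members with an unadjusted p under 0.05 where 3.85% of all genes had one. From day 3 to day 14 it was -2.29 ± 1.38 for Mmp3. No member was called in any of the 3 tests of such a change between days, where 0% of 15858 genes were called by edgeR. In these tests 164, 610 and 1029 genes had an unadjusted p under 0.05 (days 3 to 7, 7 to 14 and 3 to 14), and DESeq2 called 8, 2 and 30.

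After transection Mmp3 was higher on day 7 than on day 3 by 2.24 ± 0.87 and lower on day 14 than on day 7 by -2.83 ± 1.05, with adjusted p of 0.136 and 0.165 (edgeR). Without the day 7 rat at 55.0 CPM these differences were 1.045 and -1.61, and the change in effect from day 7 to day 14 was -1.79. With the nerve intact its differences from day 3 were 1.62 ± 0.84 on day 7 and 1.76 ± 1.08 on day 14. On day 3 itself the difference by transection was 1.39 ± 0.80. None of these passed the test. Card14 (r = 0.82), Col6a1 (r = 0.77) and Il18bp (r = 0.76) were most alike to Mmp3.

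Mmp10 was close to the limit of detection. On day 14 it had 6.60 to 15.2 counts in the sensory nerve+ rats (0.383 to 0.862 CPM) and 30.2, 38.8, 3.33 and 15.25 counts in the sensory nerve- rats (2.45, 2.20, 0.331 and 1.39 CPM), so that 3 of 4 rats stood above and rat 3 below. On day 3 it had 96.4 counts (4.47 CPM) in sensory nerve- rat 3 and at most 12.01 in the other rats, and on day 7 at most 13.0. By transection the log2 difference on day 14 was 1.55 ± 0.57 (unadjusted p = 0.0266, adjusted p = 0.519, edgeR), and on day 3 it was 1.74 ± 1.56. From day 7 to day 14 without the nerve the difference was 2.06 ± 0.88 (adjusted p = 0.207, edgeR). The change in the effect of transection was -1.24 ± 1.83 from day 3 to day 7 and 1.07 ± 1.75 from day 7 to day 14. Both turned sign without a single rat, the former to 1.22 without sensory nerve- rat 3 of day 3 and to 0.24 without sensory nerve+ rat 4 of day 7, and the latter to -0.44 without that rat of day 7. Mmp10 did not pass the filter on low counts on day 7 by transection, from day 3 to day 7 without the nerve, and from day 7 to day 14 with it. Mmp3 and Mmp10 are close paralogs, and the expected counts share out reads that fit both, so a low Mmp10 level is uncertain.

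Among the inhibitors, Timp1 was highest on day 3. It was at 311, 179 and 250.1 CPM in sensory nerve+ rats on day 3, at 135, 138, 84.6 and 167 CPM on day 7, and at 101, 55.0, 135 and 92.15 CPM on day 14. All sensory nerve+ rats of days 7 and 14 lay below those of day 3. The log2 difference from day 3 was -0.87 ± 0.27 on day 7 (unadjusted p = 0.0144, adjusted p = 0.103) and -1.35 ± 0.32 on day 14 (unadjusted p = 0.00366, adjusted p = 0.0534), both in edgeR and both short of the threshold. On day 14 Timp1 was the 1 member of 10 separated downward from day 3, where 13.8% of all genes were. After transection the levels were 290.5, 198, 286 and 269 CPM on day 3, 66.9, 156, 126 and 215 CPM on day 7, and 91.9, 261, 76.4 and 134 CPM on day 14. These groups overlapped, and the differences from day 3 were -0.91 ± 0.32 on day 7 and -0.94 ± 0.37 on day 14, with adjusted p of 0.108 and 0.0996 (edgeR). Without the day 14 rat at 261 CPM the second difference was -1.42, with an adjusted p of 0.00576. That was the 1 call among 8 fits without 1 rat, which ran from -1.42 to -0.74 with adjusted p up to 0.2045 (edgeR). By transection Timp1 differed by 0.07 ± 0.21, 0.10 ± 0.35 and 0.54 ± 0.43 on the log2 scale on days 3, 7 and 14. Most alike to Timp1 were Plod3 (r = 0.95), a collagen lysyl hydroxylase, Ostc (r = 0.94) and Selenof (r = 0.93).

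The ratio of Mmp12 to Timp1 in CPM within a rat differed widely between days. Its median was 0.0773 and 0.177 on day 3 with and without the nerve, and 2.59 and 2.85 on day 7. On day 14 it was 1.55 and 1.57. No rat of day 3 exceeded 0.419 and no rat of day 7 was under 1.42. As Mmp12 was higher and Timp1 lower on day 7, this gap restates those differences and adds no support to them. The ratios of Mmp9 and Mmp13 to Timp1, and of Mmp2 and Mmp14 to Timp2, overlapped between day 3 and day 7 in both nerve groups. On day 14 the ratio of Mmp13 to Timp1 was 3.93 to 16.96 with the nerve and 4.13 to 16.55 without it. Every rat of day 14 lay above all rats of days 3 and 7 of its nerve group, which reached 2.92 and 3.99. That gap, too, is made of the levels given above and adds no support to them. The ratio of Mmp9 to Timp1 had a median of 3.26 with the nerve and 10.1 without it on day 14, with ranges of 2.37 to 11.4 and 2.92 to 13.5 that overlapped. These ratios are of reads, not of protein, and no test was made on them.

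Timp2, which takes part in the activation of Mmp2 by Mmp14 as well as in inhibition, moved over a narrow range. In sensory nerve+ rats it was at 454, 394 and 508 CPM on day 3, at 714, 639, 358 and 693 CPM on day 7, and at 470.1, 229, 529 and 404 CPM on day 14. In sensory nerve- rats it was at 538, 563, 482 and 598 CPM on day 3, at 502, 863, 786.5 and 881 CPM on day 7, and at 347, 670.0, 345.5 and 499.5 CPM on day 14. After transection day 7 was above day 3 by 0.46 ± 0.20 and day 14 below day 7 by -0.70 ± 0.29, with overlapping groups and adjusted p of 0.169 and 0.198 (edgeR). Over the 23 rats Timp2 was the gene most alike to Mmp14 of all 14334 (r = 0.88, rho = 0.86, and r = 0.80 without the 2 rats farthest from the median of Mmp14), and Mmp14 came after Pcyt1a alone as the most alike to Timp2. With group means taken out r was 0.80, and Timp2 then ranked 13 for Mmp14 and Mmp14 ranked 40 for Timp2. Summed fibroblast markers gave r = 0.78 with Mmp14 and r = 0.74 with Timp2.

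For Timp3, the inhibitor held in the matrix, the values of day 3 spread most widely. On day 3 it was at 42.0, 123.5 and 99.25 CPM with the nerve and at 99.55, 820.2, 221 and 53.95 CPM without it, and in all other groups it lay between 60.4 and 269.7 CPM. The difference by transection on day 3 was 1.75 ± 0.98 (adjusted p = 0.9999, edgeR), and it was 0.48 without the rat at 820.2 CPM. In sensory nerve- rats the difference from day 3 to day 7 was -1.03 ± 0.77, and without that rat it turned to 0.22. From day 3 to day 14 with the nerve intact the difference was 1.10 ± 0.58 (adjusted p = 0.261, edgeR). The effect of transection differed by -1.60 ± 0.90 between day 3 and day 7 and by -1.95 ± 0.90 between day 3 and day 14 (unadjusted p = 0.0436, adjusted p = 0.752, edgeR), the 1 member of 10 under 0.05 there, where 6.49% of all genes were. Without the rat at 820.2 CPM these values were -0.34 and -0.69. Timp1 and Timp3 lie within the genes Syn1 and Syn3, and reads of the hosts were few (13.0 to 50 counts for Syn1 and 4 to 98 for Syn3 in a rat) beside those of the inhibitors (692 to 6130 and 643 to 17280). Otud7b (r = 0.84), Pcdh17 (r = 0.82) and Dclk2 (r = 0.81) were most alike to Timp3.

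Seen together by transection, more members were higher than lower, without a call. On day 3 all 10 were higher in sensory nerve- rats with a median log2 difference of 0.51, on day 7 all 9 tested were higher with a median of 0.48, and on day 14 it was 8 of 10 with a median of 0.25. Over all genes 48.2%, 48.8% and 53.4% were higher, with medians of -0.01, -0.01 and 0.03. The members were read in the same few rats, and some pairs varied together, such as Mmp14 with Timp2 and Mmp9 with Mmp13, while others did not. A count of members is therefore no count of independent results. Single rats also weighed in it, as for Timp3 on day 3 (0.48 without 1 rat) and Mmp3 on day 7 (0.88 without 1 rat). The members with neither a size over 1 nor an unadjusted p under 0.05 lay between 0.07 and 0.68 on day 3, between 0.00 and 0.63 on day 7, and between -0.91 and 0.54 on day 14. The smallest adjusted p of a member was 0.9999, 0.9997 and 0.519 (edgeR), and none of the members separated the groups on any day, where 1.62%, 0.761% and 3.37% of all genes did. No gene at all was called by edgeR on the 3 days, with 122, 215 and 1363 genes at an unadjusted p under 0.05, and DESeq2 called 0, 1 and 95. The count of day 14 depended on the scaling. By library totals 4 of 10 members were higher, and the median of all genes was then -0.41, beside a globin share of 0.263% to 50.1% in that group. Mmp12 differed by 1.012 ± 0.51, 0.63 ± 0.59 and 0.20 ± 0.51 on the log2 scale on days 3, 7 and 14.

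**Figure D3:**
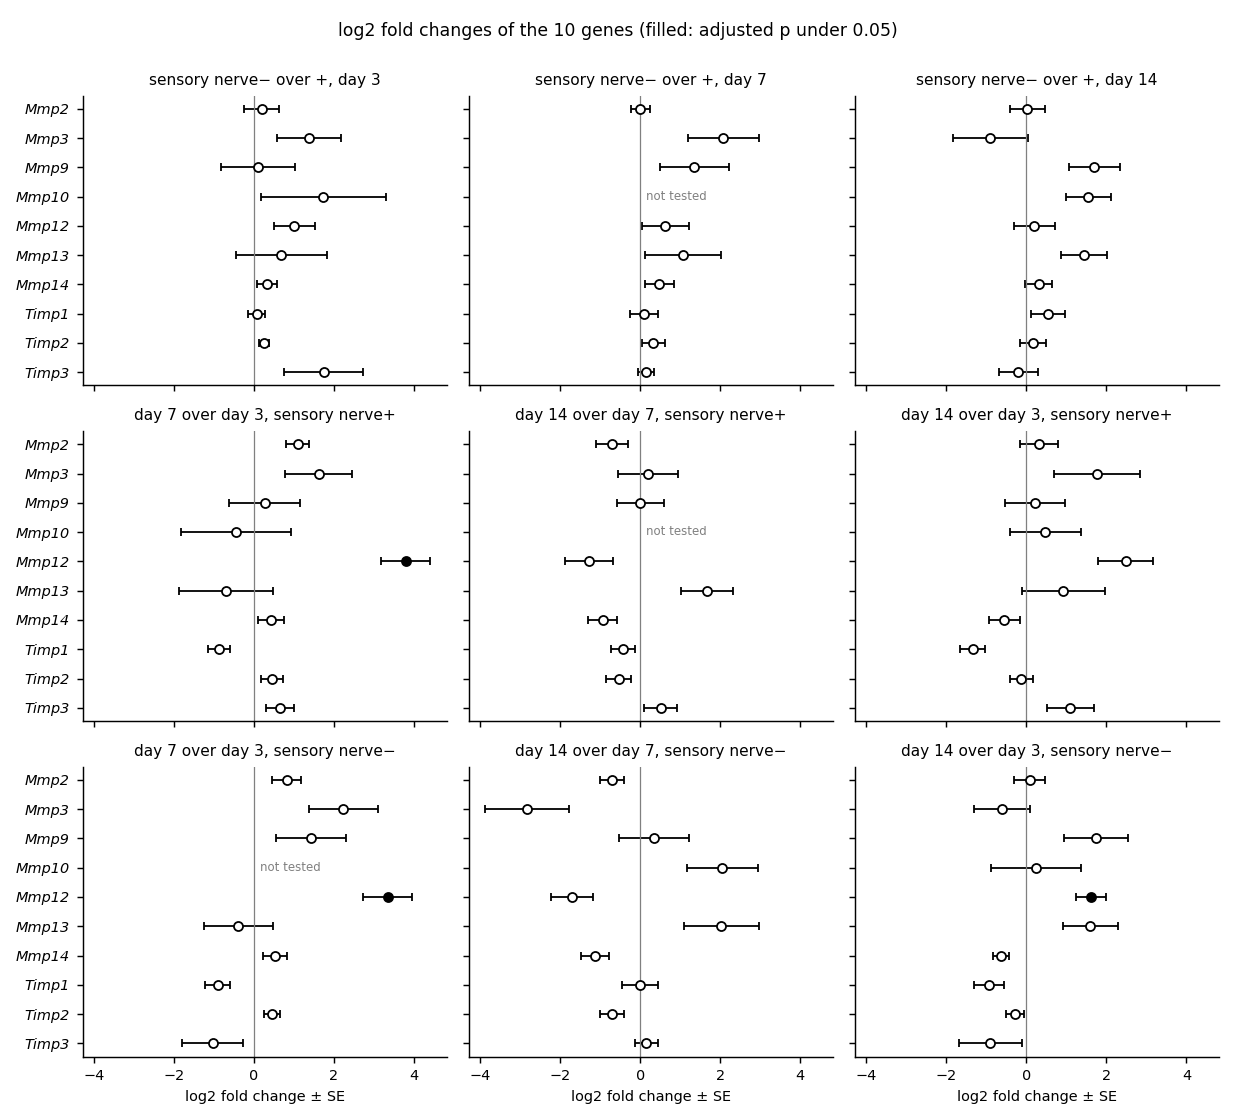
log2 fold changes of the 10 genes with their SE for the 3 comparisons by transection and the 6 between days (edgeR), filled where the adjusted p is under 0.05. Only Mmp12 is filled, from day 3 to day 7 in both nerve groups (3.797 and 3.34) and from day 3 to day 14 without the nerve (1.61), and Mmp10 has no value in 3 panels where it did not pass the filter.

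The rest of the protease system was read through 62 further genes, namely other MMPs, other inhibitors, genes that activate or clear MMPs, and ADAM and ADAMTS proteases. By transection none was called on any day. From day 3 to day 7 with the nerve intact, 4 were called higher and 1 lower of 53 tested, where 4.88% and 1.79% of all genes were. The higher ones were Adamts8 (log2 4.31 ± 0.63), Mmp15 (1.97 ± 0.37), Mmp11 (1.67 ± 0.37) and Adamts2 (1.26 ± 0.28), a procollagen N-proteinase. Their adjusted p-values lay between 0.0126 and 0.0473 (edgeR). Adamts8 was at only 0.286 to 0.770 CPM on day 3 and at 3.76 to 15.4 CPM on day 7. As 3 counts stand for 0.16 to 0.202 CPM in a rat, the size of its difference is uncertain. From day 3 to day 14 with the nerve intact 3 of 50 were called higher and 4 lower, where 2.69% and 3.09% of all genes were. Among them were Mmp15 (2.71 ± 0.54) and Serping1 (3.09 ± 0.54), the C1 inhibitor, which rose, and Sdc1 (-1.67 ± 0.25), Cd44 (-1.04 ± 0.17), which anchors Mmp9 at the cell surface, and the collagen chaperone Serpinh1 (-1.36 ± 0.27), which fell.

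Within the sensory nerve- rats urokinase and its receptor were lower on day 14 than on day 3. Of 50 genes tested 2 were called higher and 5 lower, where 8.88% and 14.6% of all genes were called. The urokinase Plau (-2.22 ± 0.30), its receptor Plaur (-1.08 ± 0.25) and Tfpi2 (-1.05 ± 0.24), a serine protease inhibitor, fell, and Mmp25 (2.62 ± 0.62), a membrane-anchored MMP of leukocytes, rose, with adjusted p between 0.00357 and 0.021 (edgeR). Between days 3 and 7 without the nerve, 1 gene of 49 was called, where 10.4% of all genes were. It was Serpinb2 (-3.01 ± 0.64, adjusted p = 0.027, edgeR), a serine protease inhibitor of the serpin family. Its levels were low, at 1.10 to 6.57 CPM on day 3 and 0.195 to 0.618 CPM on day 7. In a rat 3 counts stand for 0.16 to 0.202 CPM, so the size of this difference is uncertain. No gene of these lists was called from day 7 to day 14 in either nerve group. From day 3 to day 14, 10 of the 12 tested genes that activate or clear MMPs were lower without the nerve and 8 of 12 with it. Their median log2 differences were -0.57 and -0.70. For the change in the effect of transection between these 2 days, edgeR called 0 genes in all.

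In the macrophages the question was whether CGRP changed these transcripts during 6 h of LPS, and no member was called. Mmp9 (mm10 chr2:164940780-164955850) was by far the most abundant per length, at 33.0 ± 1.10 CPM per kb of exon with LPS and 32.7 ± 1.05 with LPS and CGRP (SD, n = 6 and n = 5). In CPM it was 113 to 123 with LPS and 111 to 120.1 with LPS and CGRP. The ranges overlapped, and the log2 difference was -0.02 ± 0.02 (adjusted p = 0.877, limma). Next per length came Mmp14 (chr14:54431612-54445364) with 3.54 ± 0.15 and 3.59 ± 0.12 CPM per kb, Timp1 (chrX:20870166-20874735) with 2.25 ± 0.12 and 2.002 ± 0.086, Timp2 (chr11:118301069-118355740) with 1.57 ± 0.10 and 1.42 ± 0.08, and Mmp12 (chr9:7344381-7369499) with 0.203 ± 0.019 and 0.187 ± 0.035. The ranges of these 5 genes over the cultures did not meet in either group, so the order held in every culture.

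Timp1 and Timp2 had slightly lower mean levels with CGRP, and neither was called. Timp1 was at 2.15, 1.98, 2.025, 1.825, 1.997 and 1.996 CPM with LPS and at 1.71, 1.89, 1.83, 1.71 and 1.75 CPM with LPS and CGRP. Timp2 was at 5.79, 6.47, 6.56, 6.17, 5.49 and 6.24 CPM and at 5.76, 5.625, 5.05, 5.845 and 5.34 CPM, respectively. For both genes the ranges overlapped. The log2 difference was -0.13 ± 0.05 for Timp1 (unadjusted p = 0.0235) and -0.14 ± 0.05 for Timp2 (unadjusted p = 0.018), with adjusted p of 0.426 and 0.411 (limma). Of the 5 members tested 2 thus had an unadjusted p under 0.05, where 10% of all genes had one, and 0.0222% of genes were called. Over 10 alternative fits the log2 difference ran from -0.21 to -0.05 for Timp1 and from -0.20 to -0.06 for Timp2, without a call. Mmp14 and Mmp12 differed by 0.02 ± 0.03 and -0.10 ± 0.08.

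The other 5 members were near or at 0 reads in these cells and were not tested. Mmp13 had 3 to 13 reads in a culture, Mmp2 at most 5, Mmp3 at most 2 and Mmp10 at most 1. Timp3 had 0 reads in all 11 cultures, which allows up to 0.0539 CPM at 3 reads in the shallowest culture. The limit covers counting error only. Nothing in the labels says whether the cultures were independent, and the p-values then measure the spread between these samples, which may be technical. Of the 62 other protease genes, 22 were tested in the macrophages and none was called.

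**Figure D4:**
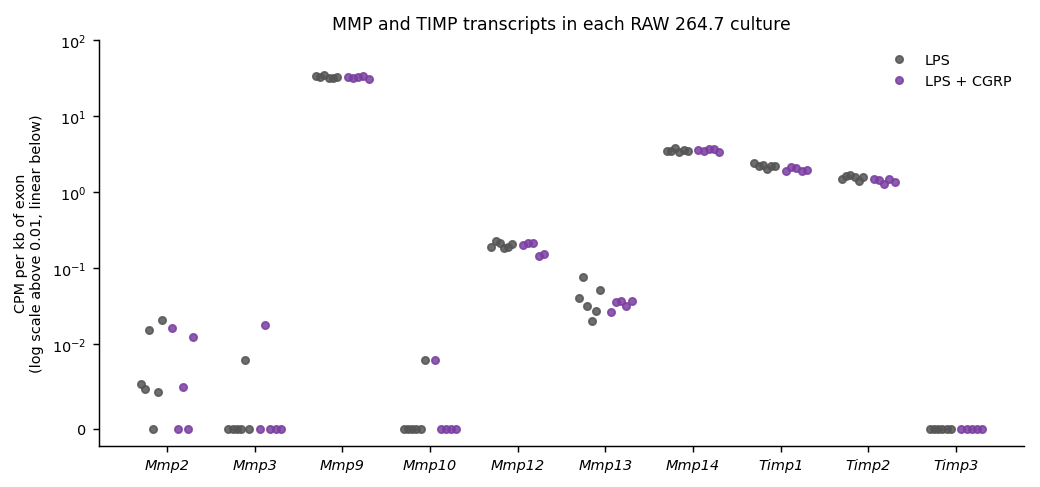
Level of the 10 genes in each RAW264.7 culture as CPM per kb of exon, on a scale that is logarithmic above 0.01 and linear below, with 6 cultures given LPS and 5 given LPS and CGRP. Mmp9 lies above the other genes in every culture, the groups overlap for each gene, and Timp3 is at 0 throughout.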

How the data were processed

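The authors aligned rat reads (DNBSEQ) with HISAT to mRatBN7.2, and the labels of the series also name Bowtie2. For the rats an expected count per gene was deposited, which shares out reads that fit several genes. These were rounded to whole numbers. Macrophage reads were trimmed with cutadapt and aligned with STAR to mm10, and the authors deposited a signal per run, reads times 1 factor per run. Whole reads were recovered from 100% of these values (tolerance 0.01), and the 2 runs of a culture were summed. Rat comparisons were fitted on their own groups with edgeR 4.0.16 (TMM, filterByExpr, quasi-likelihood test), with SE derived from F, and the changes in effect between days on all rats. Macrophages were fitted with limma 3.58.1 on log2(CPM + 0.5), since the signal is not a raw count. Benjamini-Hochberg adjusted p under 0.05 over all genes tested was called. Tests were checked on simulated data. DESeq2 1.42.0, other scalings, filters, pseudocounts and left-out samples were alternatives. A member's difference was printed where its unadjusted p was under 0.05 or its log2 size above 1, with some others for context, and the others as ranges. For other protease genes the 5 smallest adjusted p among those called were named. Some genes that these rules pick are not reported here. Markers were summed in CPM, so the most abundant genes of a list weigh most in its sum. Exon lengths are from GENCODE vM21 and no transcript lengths were used for the rat, so rat genes were not ranked by level. The members and lists were chosen with earlier results of these data known.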

Additional observations from a re-analysis of the deposited data

Results flagged for a closer look

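A rat that stood apart from its group was found in 4 of the 60 groups of 4 to 6 values that were looked at, where chance gives about 1 in 20. The gap to the nearest other rat, relative to the whole range of the group, was over the limit of Dixon's test at 95%. Mmp2 was at 867.4 CPM in 1 sensory nerve- rat of day 3, with the next rat at 386 CPM. Mmp10 was at 4.474 CPM in the same rat, with the next at 0.406 CPM. Mmp13 was at 1160 CPM in another sensory nerve- rat of day 3, with the next at 336 CPM, and at 476.4 CPM in 1 sensory nerve+ rat of day 7, with the next at 128 CPM. That rat of day 7 had 27.6% of its counts on globin, against 0.343% to 4.53% in the others of its group.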

How the results depend on the processing

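Called genes were few or many depending on the tool and on single rats. By DESeq2 the transection comparisons gave 1 gene on day 7 and 95 on day 14, and the changes in effect gave 8, 2 and 30. Between days DESeq2 gave 2807, 325 and 3376 genes with the nerve intact (day 7 over 3, 14 over 7, 14 over 3; edgeR 1002, 3 and 871) and 3218 and 1991 without it (day 7 over 3, 14 over 7; edgeR 1523 and 2). Scaling by library totals gave 579, 13 and 547 with the nerve, and 21 and 1184 without it (14 over 7, 14 over 3). It moved the median of all genes by -0.44, -0.39 and -0.37 where sensory nerve- rats of day 14 were compared with the nerve-intact group, day 7 and day 3, and by -0.11, -0.40 and -0.50 in the changes in effect, and turned the split of calls from 733 higher and 269 lower to 507 and 72 (day 7 over 3, nerve intact), from 406 and 465 to 358 and 189 (14 over 3, nerve intact), from 2 and 1 to 11 and 2 and from 2 and 0 to 3 and 18 (14 over 7, with and without the nerve), and from 1283 and 2110 to 308 and 876 (14 over 3, no nerve). A fit over all 23 rats gave 2605 (14 over 3, nerve intact) and 927 (14 over 7, no nerve). Leaving out 1 rat gave 254 to 1547, 0 to 28 and 0 to 3134 genes with the nerve and 0 to 1359, 0 to 812 and 1619 to 4352 without it. In the macrophages, DESeq2 gave 73 genes, edgeR 0 (1348 at an unadjusted p under 0.05), library totals 11, the stricter filter 13, run 1 alone 1, and leaving out 1 culture 0 to 23, against 3 by limma. The replicate numbers were not used to pair the samples, since no comparison had every same-numbered pair correlated above 0.1. This rule cannot exclude a pairing. By transection on day 7, 3 of 4 pairs were above 0.1 (mean 0.153, against -0.054 for other numbers), and in the other comparisons 0 to 2 pairs were. Blocking on the replicate number gave counts of 122, 0 and 0 with the nerve, 2 and 0 without it (day 7 over 3, 14 over 7), and 28 in the macrophages, and Mmp12 from day 3 to day 7 had adjusted p of 0.139 and 0.122. Among the alternative values of members with a log2 size over 1 or an unadjusted p under 0.05, 782 kept direction and side of the threshold, 23 gained a call and 10 lost one, and 4 changed sign, each on leaving out a rat: Timp3 from day 3 to day 7 without the nerve (-1.35 to 0.22, without rat 2 of day 3), and the change in effect of Mmp10 from day 3 to 7 (-1.89 to 1.22, without sensory nerve- rat 3 of day 3 or sensory nerve+ rat 4 of day 7) and from day 7 to 14 (-0.44 to 1.72, without the latter). Members outside that rule also changed sign with the scaling. Among others, by library totals 4 and not 8 of 10 were higher by transection on day 14, 8 and not 9 of 9 on day 7, and 3 and not 5 of 10 from day 7 to day 14 without the nerve. Timp1 from day 3 to day 14 with the nerve gained the call by DESeq2, the all-rat fit and library totals (adjusted p 0.00244 to 0.332 over 7 alternatives). The causes were not tested. Depth limits Mmp10 and, in some rats, Mmp3, whose levels come near the 0.16 to 0.202 CPM that 3 counts stand for in a rat.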

Other observations

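The ratio of Mmp13 to Mmp9 within a rat, was looked at after their values were seen and was not tested. On day 7 it was 0.197, 0.285, 0.759 and 0.836 with the nerve intact and 0.215, 0.634, 0.315 and 0.327 without it. On day 14 it was 1.35, 1.49, 1.28 and 2.04 with the nerve and 1.35, 1.15, 1.42 and 1.23 without it. Every rat of day 14 was thus above every rat of day 7 in both nerve groups, and the nerve groups overlapped on each day. Day 3 spread from 0.188 to 3.11 and covered both. The sensory nerve- rats of day 7 come from a table of their own. In sensory nerve- rat 3 of day 14, low in both genes, the ratio of 1.42 was within the range of its group.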
